A study of Mus musculus with 54 samples.

Results

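Naive CD4+ T cells are resting lymphocytes that leave quiescence when their T cell receptor (TCR) and the costimulatory receptor CD28 are engaged together. The transcriptome described here is that of WT naive CD4+ T cells purified by cell sorting and stimulated for 20 h, set against the same cells at 0 h. Its members were the 6 libraries that the labels give as WT cells of the LAT experiment at those times, 3 at 0 h and 3 at 20 h, of 54 RNA-seq libraries in the series. The study asked how LAT, an adaptor that relays signals from the TCR, and the surface receptors CD5 and CD6 shape the response of such cells.

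All mice had the C57BL/6 background. The WT cells expressed the human diphtheria toxin receptor (hDTR+) and were sorted on a FACS AriaIII from pooled lymph nodes and spleens of Lat fl-dtr maT-Cre mice, as were Lat-/- (hDTR-) cells, which lack LAT. Here WT therefore meant cells of a floxed reporter strain in which Lat had not been deleted. The promoter that drives maT-Cre is not given in the sources used here. The 20 h cells received plate-bound anti-CD3 at 3 µg/ml plus soluble anti-CD28 at 1 µg/ml, and RNA of the 0 h cells was extracted straight after purification. No cells were cultured for 20 h without antibody, so stimulation and time in culture cannot be told apart. Other groups served for comparison, namely sorted WT cells at 4 h, sorted Lat-/- cells at 0 h and 20 h, and WT cells of the other experiment of the series at 0 h and 20 h. That last group was enriched with a magnetic naive CD4+ T cell kit instead of being sorted, with the same antibodies.

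On activation, T cells are known to grow in size before their first division. They raise ribosome production, nutrient uptake and glycolysis under control of MYC and mTOR, and then enter S phase through the E2F factors. In the same window they silence the program of the recirculating naive cell, which rests on FOXO1, KLF2, the lymph node homing receptors and the survival receptor for IL-7.

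The 9 sorted WT libraries held 21495317 to 28501095 counts each, and levels are given as CPM, counts brought to a common library size with TMM factors. CPM values compare the same gene between libraries, not different genes. The second 0 h library stood apart from the other 0 h libraries. Its chi-square per degree of freedom was 106 and 94.2 against them, which differed from each other by 21.4, whereas the pairs of 20 h libraries gave 3.02 to 10.6. It also gave 7.53% of its counts to cytosolic ribosomal proteins, against 4.57% and 4.97%. Among the 4 h libraries the third stood apart, at 59.6 and 69.4 against 15.1. The 3 libraries of a condition are described as independent samples with no source animals named, and tests measured the spread between these libraries.

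The labels call the cells naive CD4+ T cells, and their markers were checked at the RNA level. Cd4, the coreceptor gene, stood at 1378, 1314 and 1285 CPM at 0 h, and Cd3e, a chain of the TCR complex, at 514, 514 and 489. Cd8b1, of the CD8 coreceptor, was at 29.7 to 34.8 CPM, and the B cell gene Ms4a1 had a mean of 0.023 CPM. The 2 CD8 T cell markers, Cd8b1 and Cd8a, summed to 30.3 to 35.0 CPM at 0 h and 12.4 to 13.8 at 20 h (1 higher, 1 lower). The summed CPM of 19 B cell markers was 738 to 944 at 0 h and 320 to 371 at 20 h, but the immunoglobulin heavy chain gene Ighm alone held 788 ± 138 CPM at 0 h. In all, 5 of the 19 were lower and 1, Cd74, was higher. Pax5, a defining factor of B cells, was at 0 CPM in every sorted WT library at 0 h and 20 h. Summed myeloid markers went from 390 to 563 CPM at 0 h to 186 to 189 at 20 h, mostly Ctss and Cst3, with 8 of 16 lower and Cd14, Adgre1 and Siglech at 0 in all 0 h libraries. Gamma delta T cell markers summed to 31.8 to 45.2 CPM at 0 h and 6.42 to 7.52 at 20 h (4 of 7 lower), and NK cell markers to 9.66 to 29.5 and 9.10 to 11.3 (7 of 8 lower). By DESeq2 the lower markers were 3 for B cells, 5 for myeloid cells and 4 for NK cells. Of 7 regulatory T cell markers 3 were higher and 1 lower, of 14 memory and effector markers 7 were lower, and of 9 erythroid and platelet markers, which summed to at most 1.53 CPM, 2 were lower. Of the 15 markers of CD4+ T cells themselves 8 were lower and 1, Cd28, was higher (1.96 ± 0.18). In bulk libraries fewer cells of a type and less RNA per cell cannot be told apart. CPM are relative to all counts of a library, so a lower CPM alone does not show fewer transcripts per cell. Lat itself was at 292, 214 and 241 CPM in the WT libraries at 0 h, against 15.3 ± 3.76 (mean ± SD, n = 3) in Lat-/- cells.

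At 20 h, 2999 of 27780 genes tested were higher and 3525 were lower than at 0 h, which is 10.8% and 12.7% of the genes. A gene was called when its fold change exceeded 2 at an adjusted p under 0.05 in edgeR's quasi-likelihood test, fitted to all 18 libraries of the experiment. The 20 h libraries did not overlap the 0 h libraries for 2972 of the higher and 3203 of the lower genes. The calls rest on the same libraries, so this adds no separate evidence, and the share over all genes is not given here. Fitted changes above 8-fold were found in 817 higher and 1010 lower genes. Of these, 367 higher and 278 lower genes averaged 50 counts or more over the 6 libraries. Genes called higher held 10.4% of the counts at 0 h and 32.7% at 20 h, and genes called lower went from 30.7% to 9.45%. The median log2 fold change of the 12757 well-counted genes, those averaging 10 counts or more over the 6 libraries, was -0.03, so the changes below are relative to a centre near 0.

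**Figure D1:**
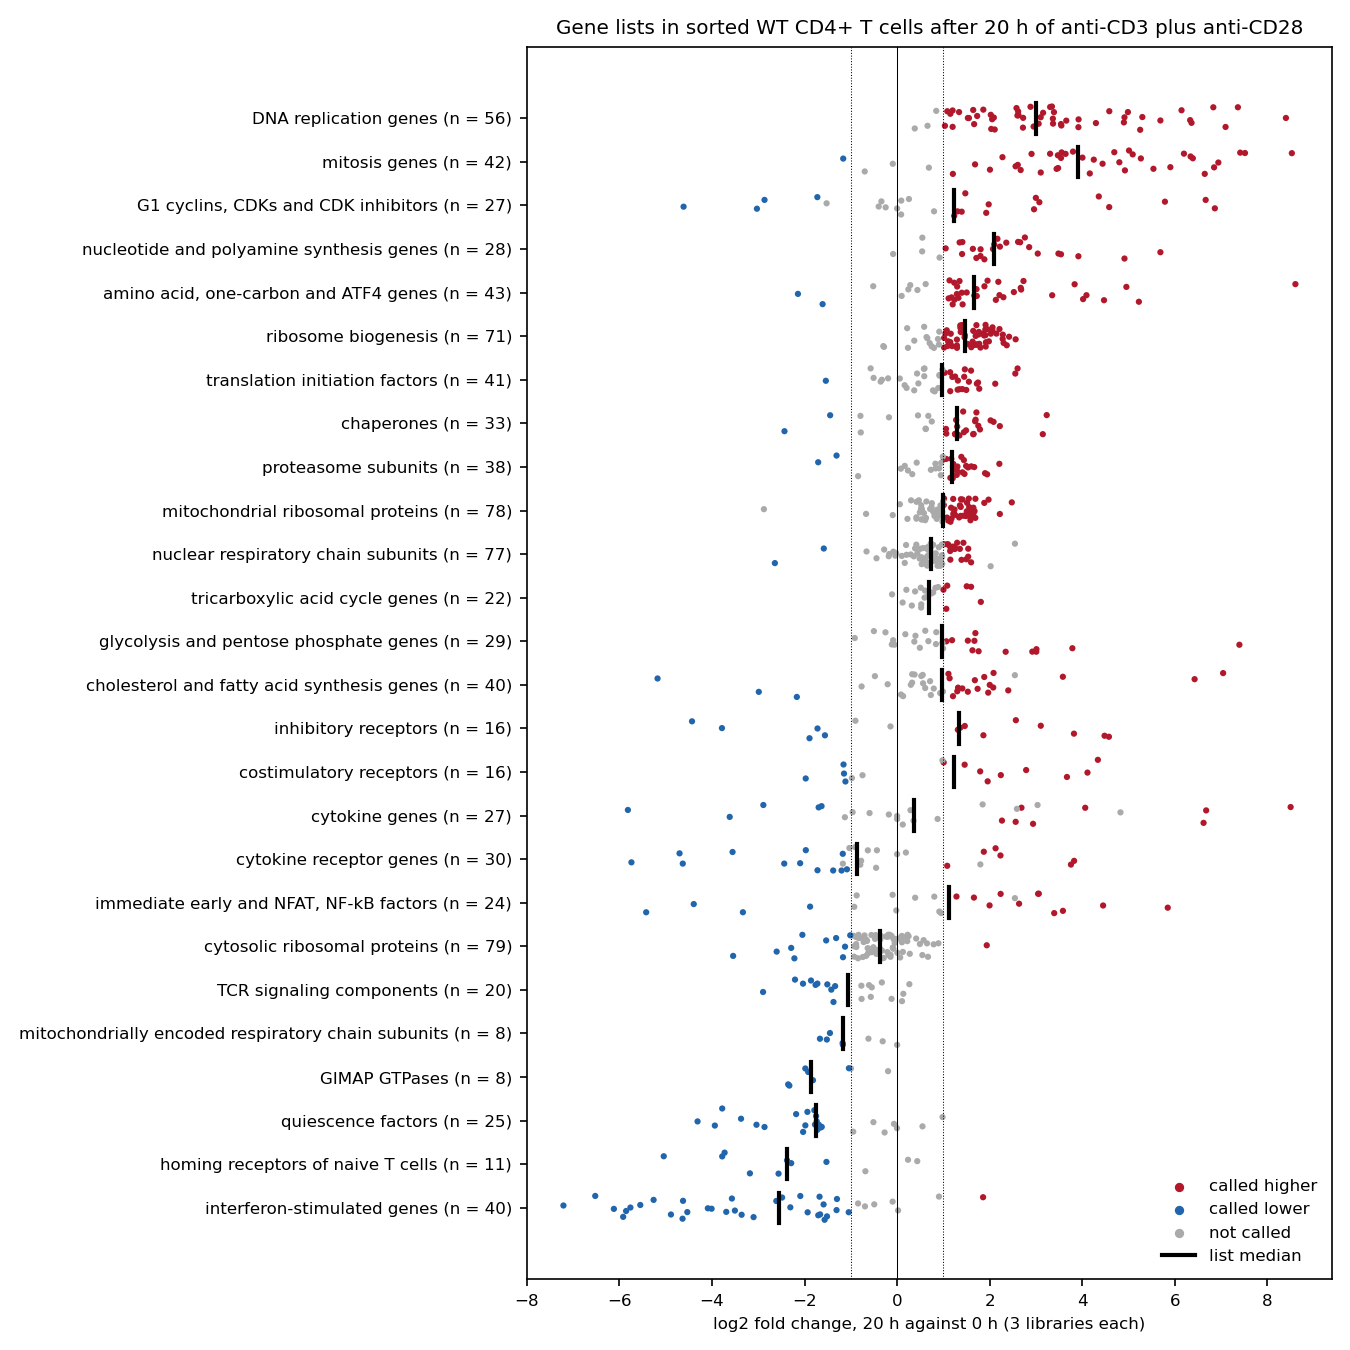
Log2 fold change at 20 h against 0 h (x axis) for every tested member of 26 gene lists (rows), 1 point a gene, red called higher, blue called lower, grey not called, with the list median as a black bar and dotted lines at a 2-fold change. Cell division, growth and biosynthesis lists lie to the right, with medians up to 3.90 for mitosis genes, and homing, quiescence and interferon-stimulated genes lie to the left, down to -2.55.

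The DNA replication machinery rose in nearly all its parts. Of 56 replication genes, 53 were higher and none lower, with a median log2 fold change of 3.00. Cdc6, which loads the MCM helicase at origins, stood at 0.784, 0.455 and 0.945 CPM in the 0 h libraries and at 131, 126 and 109 in the 20 h libraries, without overlap (log2 fold change 7.36 ± 0.25 SE, adjusted p = 4.88e-181). The origin firing factor Mcm10 went from 0.235, 0.165 and 0.49 CPM to 109, 117 and 88.6 (8.40 ± 0.29), and the checkpoint adaptor Clspn from 0.157, 0.496 and 0.35 to 50.9, 49.9 and 37.9. For the helicase subunit Mcm5, which naive cells already expressed at 66.3, 67.4 and 57.1 CPM, the 20 h values were 1238, 1299 and 1211. The 3 members not called all had positive values, namely Rfc1 at 0.85, Dbf4 at 0.66 and the single-strand binding subunit Rpa1 at 0.38.

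E2F factors are known to act through sites near the starts of S phase genes. Promoter windows of RefSeq (GRCm38.p6), from 250 bases before to 50 after each start, were found for 46 of the 56 genes. TTCCCGC or TTGGCGC, forms of the E2F site searched on both strands, occurred in 48.2% of their 56 windows, against 12.2% of 11689 windows of well-counted genes and 6.81% of all 32851 windows. The window of Cdc6 (chr11:98907901-98908200, plus strand) is shown because it was the called replication gene of largest change that held this motif, in capitals, printed 5′ to 3′ on the strand of the gene as all windows here.
Cdc6: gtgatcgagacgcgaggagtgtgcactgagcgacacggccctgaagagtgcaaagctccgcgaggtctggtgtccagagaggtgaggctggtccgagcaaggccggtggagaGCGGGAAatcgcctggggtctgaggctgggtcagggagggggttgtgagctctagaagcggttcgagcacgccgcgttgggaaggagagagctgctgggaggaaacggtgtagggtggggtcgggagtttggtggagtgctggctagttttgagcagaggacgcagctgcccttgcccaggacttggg

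Mitosis genes rose as well. Of 42 genes, 38 were higher, with a median of 3.90, and 1 was lower. Cdk1, the kinase that drives entry into mitosis, went from 1.37, 1.28 and 1.40 CPM to 115, 119 and 107 (6.39 ± 0.24, adjusted p = 1.55e-153). Spindle checkpoint kinase Bub1 was at 0.0784 to 0.315 CPM at 0 h and 28.5 to 32.6 at 20 h, and Aurkb, of the chromosomal passenger complex, at 0.118 to 0.665 and 57.7 to 67.2. Nek2, a centrosome kinase, had no count in any 0 h library and 1.80, 2.03 and 2.12 CPM at 20 h, which is at least 17.1-fold higher against a floor of 3 counts per library. The proliferation marker Mki67 spread widely at 20 h, with 22.1, 14.7 and 8.13 CPM, above 2.04, 1.28 and 0.805 at 0 h in each library. Pttg1 (securin) was the lower gene, at -1.17 ± 0.16, and the centromeric histone Cenpa and the kinesin Kif23 were not called, at -0.70 and -0.09.

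The cell cycle homology region, TTTGAA or TTTAAA on either strand, was present in 84.2% of 38 windows of 35 mitosis genes and in 19.3% of the windows of well-counted genes. CCAAT, often found beside it, was present in 78.9% and 37.8%. A match is no more than a description. The window of Ttk, a spindle checkpoint kinase (chr9:83834439-83834738, plus strand), carries the first motif on its minus strand near the start site, in capitals.
Ttk: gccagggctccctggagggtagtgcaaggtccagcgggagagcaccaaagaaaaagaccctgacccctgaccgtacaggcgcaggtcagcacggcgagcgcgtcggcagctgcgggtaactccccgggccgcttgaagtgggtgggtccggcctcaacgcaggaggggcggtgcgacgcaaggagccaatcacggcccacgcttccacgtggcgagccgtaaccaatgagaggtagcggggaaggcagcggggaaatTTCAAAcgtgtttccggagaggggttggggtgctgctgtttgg

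Among 27 cyclins, CDKs, E2F factors and inhibitors of the G1 phase, 14 were higher and 4 lower. Cyclin E gene Ccne1 went from 6.63, 6.94 and 8.44 CPM to 58.5, 62.0 and 55.6, and Ccnd2, a D cyclin already abundant at 0 h, from 616, 553 and 638 to 1629, 1664 and 1458. The atypical repressors E2f7 and E2f8 were higher, at 6.87 ± 0.65 and 5.79 ± 0.38. The CDK inhibitors split. Cdkn1b (p27), which holds naive cells out of cycle, fell from 224, 157 and 246 CPM to 26.4, 28.8 and 30.7 (-2.87 ± 0.16), and Cdkn2d from a range of 136 to 158 CPM to one of 15.5 to 19.9. Cdkn1a (p21) instead rose from 0.196, 0.289 and 0.21 CPM to 23.6, 25.0 and 23.2 (6.67 ± 0.28).

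Precursors for DNA come from nucleotide synthesis, where 24 of 28 genes of this and the polyamine pathway were higher and none lower (median 2.09). Rrm2, the regulated subunit of ribonucleotide reductase, rose from 3.92, 4.88 and 6.51 CPM to 281, 267 and 246 (5.69 ± 0.20). Thymidylate synthase (Tyms) went from a range of 4.71 to 8.80 CPM to one of 87.8 to 94.9. Odc1, the first enzyme of polyamine synthesis and a classic MYC target, was at 31.3, 22.2 and 31.4 CPM at 0 h and 316, 320.2 and 316 at 20 h. Impdh1, of guanine nucleotide synthesis, was not called, with -0.09.

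Ribosome biogenesis, the assembly of ribosomes in the nucleolus, gave 57 higher and 0 lower of 71 genes (median 1.46). The largest were Nop16 (42.2, 64.6 and 42.5 CPM to 282, 294 and 306), Pno1 (2.42 ± 0.16) and Nhp2 (2.37 ± 0.16), each needed for rRNA processing. Nucleolin (Ncl) was among the 5 genes that gained most CPM of all, from 919, 1081 and 964 to 4048, 4070.4 and 3937. Tcof1, Taf1d and Ddx10 lay within 0.31 of 0 on the log2 scale and were not called. Translation initiation factors followed, with 20 higher and 1 lower of 41. Eif5a, which needs a polyamine-derived residue to work, rose from 380.0, 553 and 401 CPM to 2607, 2594 and 2904 (2.60 ± 0.15). Eif4a2, an isoform of the eIF4A helicase, was the lower one, at -1.54 ± 0.15.

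Cytosolic ribosomal proteins themselves did not share this rise, with 1 of 79 higher, 10 lower and a median of -0.36. The lower share, 12.7%, was that of all genes tested, also 12.7%, while 1.27% were higher against 10.8% of all genes. All 79 averaged 10 counts or more, as did 12757 of the 27780 genes tested, so these shares rest on unlike sets. Some of the ribosomal protein genes called lower were thinly counted, such as Rpl24 at 0.588, 1.07 and 1.19 CPM at 0 h. These genes have many processed pseudogenes that share reads, so single members are uncertain. Without the first 0 h library 16 were lower, and without the second 3 were higher.

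MYC binds the E-box CACGTG, a palindrome that reads alike on both strands, which was found in 20.8% of 72 windows of ribosome biogenesis genes and 25.9% of 27 windows of nucleotide and polyamine synthesis genes. Over windows of well-counted genes the share was 10.2%. Myc was at 144, 164 and 143 CPM at 0 h and 599, 661 and 682 at 20 h (2.11 ± 0.15). The windows of Pno1 (chr11:17211540-17211839, minus strand) and Tyms (chr5:30073576-30073875, minus strand) are the called members of largest change that hold the E-box, in capitals.
Pno1: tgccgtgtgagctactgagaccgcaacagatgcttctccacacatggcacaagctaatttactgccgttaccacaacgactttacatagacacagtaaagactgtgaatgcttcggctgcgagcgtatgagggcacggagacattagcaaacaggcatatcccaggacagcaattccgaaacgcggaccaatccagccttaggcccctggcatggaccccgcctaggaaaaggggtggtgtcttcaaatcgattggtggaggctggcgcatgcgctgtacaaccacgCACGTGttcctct
Tyms: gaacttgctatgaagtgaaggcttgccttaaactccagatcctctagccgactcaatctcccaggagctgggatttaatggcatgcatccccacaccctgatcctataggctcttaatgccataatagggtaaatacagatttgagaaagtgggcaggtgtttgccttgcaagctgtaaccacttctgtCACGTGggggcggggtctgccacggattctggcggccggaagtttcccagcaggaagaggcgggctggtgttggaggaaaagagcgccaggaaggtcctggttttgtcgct

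Amino acid transport, serine and one-carbon metabolism and targets of the stress factor ATF4 gave 35 higher and 2 lower of 43 (median 1.67). Slc7a5, a subunit of the large neutral amino acid transporter, went from 102, 94.5 and 103 CPM to 369, 377 and 415, and the mitochondrial folate enzyme Mthfd2 from 78.4, 101 and 82.9 to 204, 212 and 201. Asparagine synthetase (Asns) was at 0.118 to 0.49 CPM at 0 h and 8.26 to 12.7 at 20 h. Cth, of cysteine synthesis, had no count at 0 h and 1.37, 1.51 and 3.40 CPM at 20 h, at least 18.1-fold higher. The 2 lower genes, Ddit3 (CHOP) at -2.14 ± 0.19 and Trib3 at -1.61 ± 0.19, are known as feedback and death regulators of the same stress pathway. TGATGCA on either strand, a form of the composite site bound by ATF4 and C/EBP proteins, stood in 25.6% of 39 windows of 34 genes and in 1.96% of the windows of well-counted genes. Targets of ATF4 were among the genes chosen for this list, so the difference in shares is no separate finding about the response. Shown is the window of Chac1, which encodes a glutathione-degrading enzyme (chr2:119350992-119351291, plus strand), as the called gene of largest change that held the motif, in capitals.
Chac1: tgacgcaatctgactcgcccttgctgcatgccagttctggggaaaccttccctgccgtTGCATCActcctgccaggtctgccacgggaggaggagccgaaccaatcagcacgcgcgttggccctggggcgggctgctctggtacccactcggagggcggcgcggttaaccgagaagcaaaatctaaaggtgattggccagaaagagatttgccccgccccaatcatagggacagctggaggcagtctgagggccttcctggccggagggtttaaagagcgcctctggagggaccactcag

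In the cholesterol and fatty acid synthesis list, 18 of 40 genes were higher and 3 lower. Cyp51, a demethylase of cholesterol synthesis, rose from 40.7, 62.0 and 52.7 CPM to 277, 282 and 262. The lower genes were the cholesterol efflux transporters Abca1, at 44.2, 13.9 and 62.9 CPM and then 0.984, 1.03 and 1.33, and Abcg1 (-2.99 ± 0.16), and the acetate-activating enzyme Acss2 (-2.17 ± 0.16). CACCCCA on either strand, a sterol-type element, was in 10.8% of 37 windows and in 7.86% of windows of well-counted genes.

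Glycolysis and the pentose phosphate pathway had 13 of 29 genes higher and none lower, with a median of 0.98. Hexokinase 2 (Hk2), the inducible first enzyme, went from 0.863, 0.496 and 0.875 CPM to 124, 138 and 119.5 (7.40 ± 0.24, adjusted p = 4.14e-200). Triosephosphate isomerase (Tpi1) rose from 53.0, 61.3 and 58.5 CPM to 772, 872 and 741 (3.79 ± 0.17), the lactate exporter Slc16a3 by 3.01 ± 0.22, and lactate dehydrogenase A (Ldha) from 629, 845 and 630.3 CPM to 2416, 2526 and 2186. Among glucose transporters, Slc2a1 passed the threshold at 1.06 ± 0.15 and Slc2a3 did not, at -0.50. Gapdh was counted at 8.60 to 13.6 CPM at 0 h, a level that its many pseudogene copies make uncertain.

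Mitochondrial genes moved in opposite directions by genome. Of 78 nuclear genes of mitochondrial ribosomal proteins, 39 were higher and 0 lower (median 1.00), led by Mrps6 at 2.48 ± 0.16. Nuclear respiratory chain subunits gave 18 higher and 2 lower of 77, and 32 higher without the second 0 h library. In the tricarboxylic acid cycle 6 of 22 were higher, among them fumarase (Fh1) at 1.81 ± 0.15. Of the 13 protein-coding genes of mitochondrial DNA, 8 had reads, 5 were lower and none was higher. Cytochrome b (mt-Cytb) went from 4647, 6266 and 5672 CPM to 1853, 1754 and 1612 (-1.67 ± 0.15), and mt-Co1 from 5418, 5627 and 6786 to 2778, 2538 and 2597. Both were among the 5 genes that lost most CPM. Mitochondrial genes together took 1.85% to 2.35% of counts at 0 h and 0.973% to 1.07% at 20 h.

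Protein quality control rose in most of its parts. Chaperones had 23 of 33 higher and 2 lower, and the proteasome 23 of 38 higher and 2 lower. Hspd1 (mitochondrial HSP60) went from 89.4, 124 and 92.4 CPM to 922, 961 and 993 (3.23 ± 0.16), and Hsp90ab1 made the largest CPM gain of all genes, from 2403, 3405 and 1940.4 to 7993, 8203 and 8169. The proteasome activator Psme3 was at 2.21 ± 0.15 and the lid subunit Psmd7 at 1.95 ± 0.15. The 2 lower proteasome genes both encode subunits of the interferon-inducible immunoproteasome, Psmb9 at -1.31 ± 0.15 and Psmb10 at -1.71 ± 0.15, and a further one, Psmb8, was at -0.84.

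**Figure D2:**
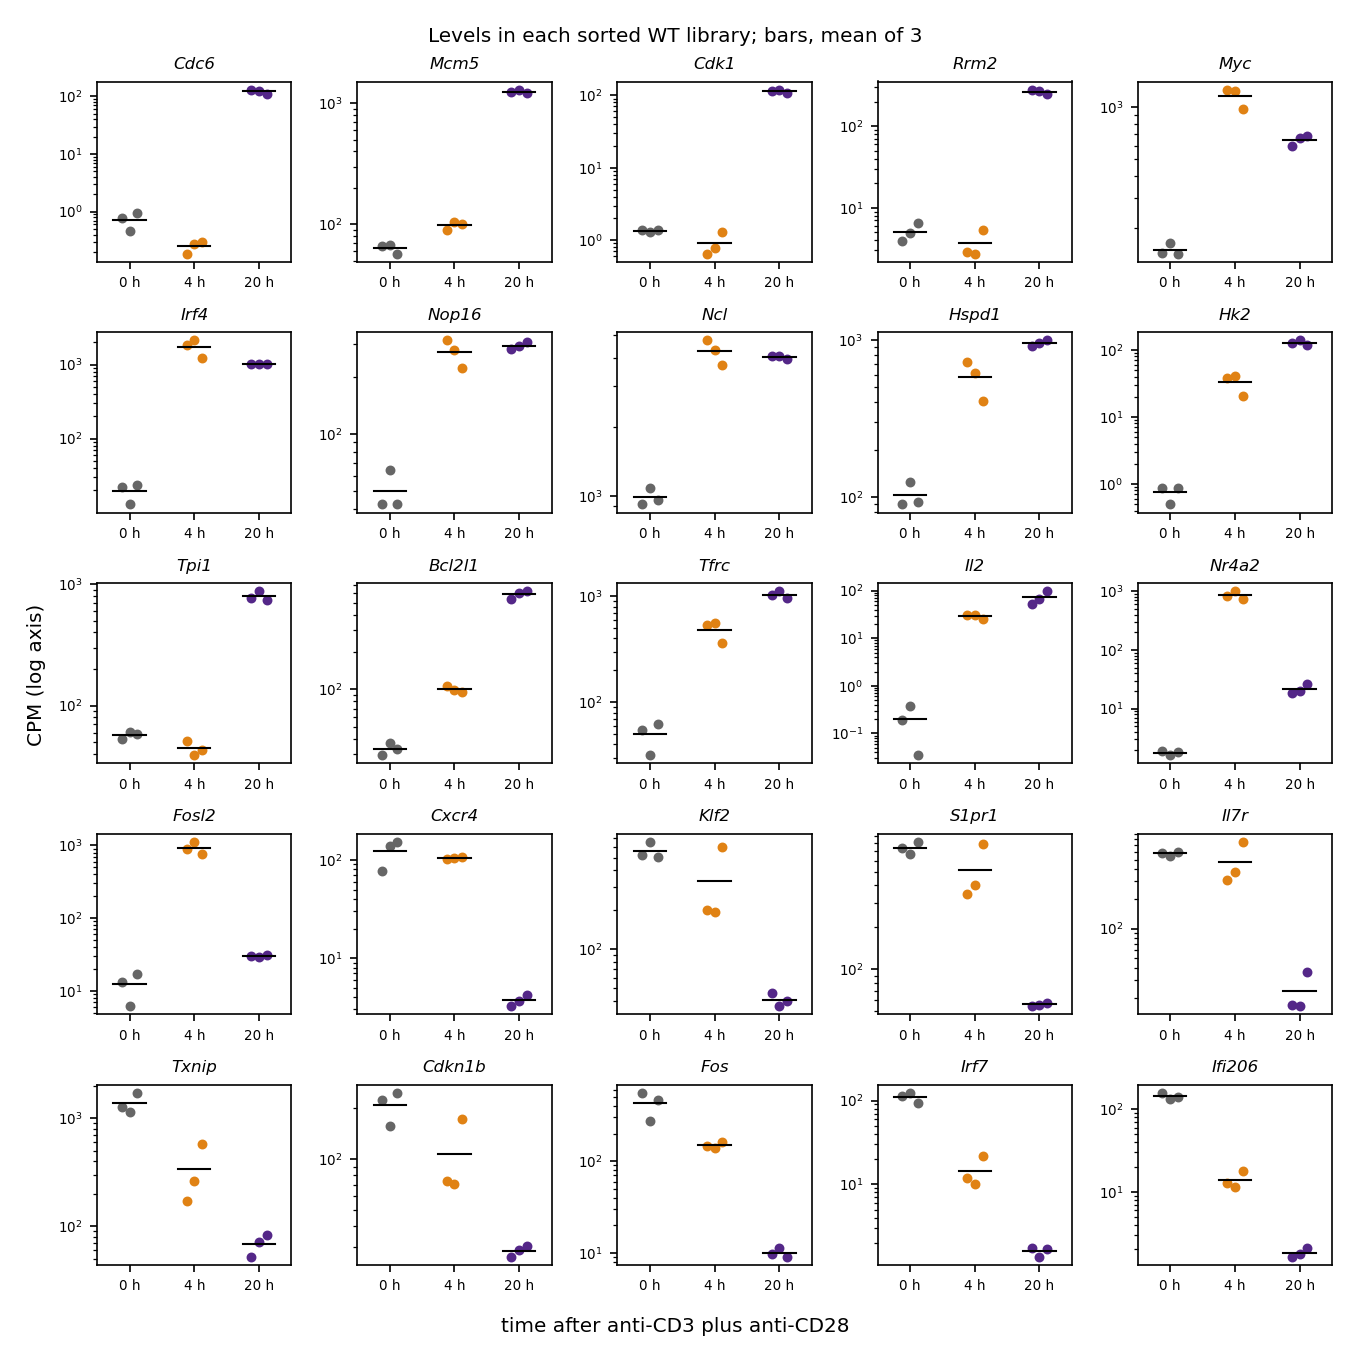
CPM on a log axis (y) of 25 genes in each sorted WT library at 0 h, 4 h and 20 h (x), 1 point a library and a bar at the mean of 3. Cdc6, Cdk1, Rrm2 and Tpi1 are high at 20 h alone, Myc, Irf4, Nr4a2 and Fosl2 peak at 4 h, and Cxcr4, Klf2, S1pr1, Il7r, Irf7 and Ifi206 are lowest at 20 h.

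The genes of the naive, recirculating state fell. Of 11 homing receptor genes, 8 were lower and 0 higher (median -2.38). S1pr1, needed to leave lymph nodes, fell from 740.0, 667 and 816 CPM to 54.6, 55.4 and 57.7 (-3.73 ± 0.16, adjusted p = 2.17e-114), and its activator Klf2 from 525, 657 and 506 to 46.1, 36.7 and 40.1. The chemokine receptor Cxcr4 had the lowest fold change of the list, from 76.6, 138 and 152 CPM to 3.25, 3.61 and 4.24 (-5.04 ± 0.19). Ccr7, which guides cells to T cell zones, was not among those called, with 918, 1179.8 and 1010.1 CPM at 0 h and 1322, 1366 and 1514 at 20 h, a log2 difference of 0.44 ± 0.14 that missed the 2-fold mark without overlap between times.

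Quiescence factors showed 18 lower and 0 higher of 25 (median -1.75). Txnip, which limits glucose uptake, fell from 1284, 1141 and 1716 CPM to 52.5, 72.5 and 83.5 (-4.31 ± 0.17), and Pik3ip1, a PI3K inhibitor, from 207, 229 and 207 to 13.0, 13.1 and 15.8. Tcf7 (TCF1) stood at 2105, 1979 and 2128 CPM and then 546, 529 and 496. Bach2, a repressor that keeps cells undifferentiated, was the highest of the list at 0.98, just short of a call. Il7r, the receptor chain for IL-7, went from 577, 548 and 603 CPM to 16.8, 16.4 and 36.5 (-4.63 ± 0.17), with the third 20 h library above the others and every 20 h library far under 0 h. GIMAP GTPases, which sustain naive lymphocytes, had 6 of 8 lower, Gimap4 at -2.35 ± 0.15. In the FoxO and autophagy list 10 of 24 were lower and 2 higher, the latter Gabarapl1 at 3.01 ± 0.21 and Bnip3 at 1.04 ± 0.41.

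TCR signaling components were lower in 10 of 20 cases and higher in none. The zeta chain Cd247 went from 776, 923 and 769 CPM to 190.0, 182 and 163, the TEC kinase Txk from 198, 195 and 206 to 30.0, 26.9 and 23.5, and Lat from 292, 214 and 241 to 97.3, 105 and 92.2 (-1.34 ± 0.15). Lcp2 (SLP-76) and the CBM complex members Bcl10 and Malt1 were not called, at 0.26, 0.11 and 0.13. Of the receptors named in the study, Cd5 and Cd6 had values of 0.93 and 0.76, positive and short of 2-fold, with no overlap between times. Negative regulators of this pathway were split, 7 higher and 6 lower of 30. The ERK pathway inhibitors Dusp4 (4.78, 1.45 and 5.50 CPM to 139, 131 and 142) and Spry1 (5.37, 5.00 and 7.81 to 149, 166 and 186) were the highest, while Dusp1 fell from 182, 79.8 and 222 to 14.1, 14.3 and 13.0. In the SOCS family of cytokine signaling inhibitors Socs2 rose by 2.84 ± 0.29 and Socs3 fell by 2.76.

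Of 18 surface proteins of activated cells 6 were higher and 5 lower. The transferrin receptor Tfrc, for iron uptake, went from 54.6, 31.7 and 62.9 CPM to 1019, 1114 and 962 (4.37 ± 0.17). Cd44, an adhesion receptor used as an activation marker, rose from 53.5, 42.9 and 66.0 CPM to 138, 142 and 158 (1.43 ± 0.16), and Cd69, an early marker, from 118, 147 and 174 to 295, 311 and 338 (1.10 ± 0.15). Ly6c1 and Cd7 fell to 2.03 to 4.99 and 2.17 to 3.93 CPM. Costimulatory receptors gave 9 higher and 4 lower of 16, with Tnfrsf4 (OX40) at 25.0, 37.1 and 29.0 and then 489.7, 543 and 543 CPM and Tnfrsf9 (4-1BB) at 25.0, 27.9 and 27.9 and then 321, 344 and 364. Inhibitory receptors gave 9 higher and 5 lower of 16. Pdcd1 (PD-1) rose from 7.80, 11.8 and 9.00 CPM to 196, 225 and 218 (4.48 ± 0.18) and Cd200 from 20.4, 21.7 and 25.9 to 294, 324 and 344, while the ectonucleotidase Entpd1 (CD39) fell to 0.111 to 0.221 CPM.

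Cytokine genes were few and uneven, with 8 of 27 higher and 5 lower. Il2, the T cell growth factor, went from 0.196, 0.372 and 0.035 CPM to 51.5, 67.3 and 97.0 (8.50 ± 0.30, adjusted p = 2.88e-172), spread over nearly 2-fold between the 20 h libraries. Tnf was at 19.0, 16.2 and 17.2 and then 104, 116 and 117 CPM, and Lta at 21.4 to 26.2 and then 167 to 190.3. Ifng, the effector cytokine of T helper 1 cells, was at 0.235, 0.165 and 0.42 CPM at 0 h and 0.257, 0.295 and 0.177 at 20 h (log2 -0.18 ± 0.57, adjusted p = 0.926), so no rise was detectable at this depth. Il21, a follicular helper cytokine, fell by 3.62 on the log2 scale, with 0.627 to 1.86 CPM at 0 h. TNF superfamily ligands had 6 of 10 higher, with Tnfsf11 (RANKL) at 7.14, 7.44 and 9.56 CPM and then 169.7, 188 and 217. Cd40lg and Fasl were not called, at -0.40 and -0.20. Chemokine genes had 6 of 14 higher. Ccl4 went from 0.51, 0.785 and 0.385 CPM to 54.8, 66.8 and 114 and Xcl1 from 1.25, 2.23 and 0.77 to 48.4, 56.1 and 171, both highest in the third 20 h library.

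Cytokine receptor genes were lower more often than higher, 12 against 6 of 30. Il6ra fell from 508, 330.1 and 516 CPM to 42.5, 38.9 and 33.7 and Il18r1 from 61.1, 49.1 and 74.7 to 2.14, 2.84 and 2.08, while Il12rb1, of the IL-12 receptor, rose from 1.06, 0.744 and 2.07 to 17.8, 21.9 and 15.8. Of 12 chemokine receptors 3 were higher and 3 lower. Ccr4 went up by 4.01 ± 0.22 and Ccr8 by 2.86 ± 0.18, and Ccr9 went from a range of 8.54 to 10.5 CPM to one of 0.553 to 0.984. In the cytotoxic list 2 of 17 genes were higher and 7 lower. Gzmb (granzyme B) rose from 1.49, 0.661 and 0.91 CPM to 17.9, 16.8 and 28.5 (4.36 ± 0.32), whereas perforin (Prf1) fell from 60.1, 75.0 and 61.2 to 3.42, 2.99 and 5.04 and Gzma from 10.3, 15.2 and 1.05 to 0.257, 0.258 and 0. The Gzma values at 0 h were lowest in the third library, as were the NK cell markers Ncr1 (1.76, 1.24 and 0.245 CPM) and Klrb1c (2.51, 3.02 and 0.49), and the part of NK cells in these falls was not tested.

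Among 24 immediate early, NFAT and NF-kB transcription factors, 11 were higher and 4 lower. Among the higher were the orphan nuclear receptors Nr4a2 (1.92, 1.61 and 1.82 CPM to 18.4, 20.2 and 25.8, 3.58 ± 0.19) and Nr4a3 (3.39 ± 0.16), and the NF-kB subunit genes Rel and Nfkb2 rose by 2.64 and 2.24. The AP-1 genes Fos (555, 271 and 469.7 CPM to 9.84, 11.2 and 9.10), Jun (331, 161 and 349 to 12.8, 12.7 and 14.5) and Fosb were lower at 20 h than in the cells fresh from sorting. Of 28 growth and effector factors 8 were higher and 4 lower. Irf4, which scales with TCR signal strength, rose from 22.0, 12.9 and 23.7 CPM to 1018, 1028 and 1006 (5.70 ± 0.18, adjusted p = 6.59e-215), and Irf8 from a range of 8.39 to 10.2 CPM to one of 247 to 261. Bhlhe40 went from 3.14, 1.45 and 4.83 CPM to 106, 118 and 108. Batf, a partner of IRF4, was not called, with 48.3, 68.5 and 46.0 CPM at 0 h and 54.6, 57.0 and 59.0 at 20 h. Prdm1 (Blimp-1) fell from a range of 6.24 to 11.3 CPM to one of 0.258 to 0.751. Of 14 helper lineage factors 8 were lower and 3 higher. Gata3 fell from 59.8, 54.4 and 60.4 CPM to 13.1, 14.1 and 14.0 and Maf from a range of 6.31 to 13.7 CPM to one of 0.514 to 1.19, and Tbx21 (T-bet) was not called, at 2.71, 2.98 and 1.47 CPM and then 2.61, 2.40 and 3.31. Foxp3, the factor of regulatory T cells, had 54.5, 50.3 and 62.4 CPM at 0 h and 30.9, 30.9 and 29.4 at 20 h (log2 -0.87 ± 0.17), short of a call.

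Within the BCL2 family of survival genes, the protective members Bcl2l1 and Bcl2 moved in opposite directions. Bcl2l1 (BCL-XL) rose from 29.5, 37.1 and 32.9 CPM to 543, 598 and 622 (4.15 ± 0.17), and Bcl2 fell from 221, 208 and 298 to 108, 112 and 95.2 (-1.21 ± 0.15). Of the 17 members with reads 6 were higher and 3 lower, the lower ones including the death promoters Bmf (-1.96 ± 0.25) and Bbc3 (PUMA, -1.11 ± 0.17). The Bcl2a1 copies were also higher but share reads. Among 21 Polycomb and DNA methylation enzymes 9 were higher and 5 lower. Uhrf1, which brings the maintenance methyltransferase to replicated DNA, went from 4.98, 5.33 and 5.74 CPM to 450.3, 462 and 383 (6.33 ± 0.20), and Ezh2 from 36.6, 30.0 and 36.4 to 258, 251 and 239, while its paralog Ezh1 fell by 1.32 and the demethylating enzyme Tet1 by 3.28.

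Interferon-stimulated genes fell in most cases. Of 40 such genes, 33 were lower and 1 was higher, with a median of -2.55. Irf7, which amplifies type I interferon responses, fell from 113, 124 and 94.1 CPM to 1.71, 1.36 and 1.68 (-6.12 ± 0.21, adjusted p = 3.93e-188). The antiviral enzymes Rsad2 and Oas2 went from 9.53, 9.01 and 8.12 and from 15.5, 10.6 and 9.21 CPM to 0, 0.0737 and 0.0884 and to 0.0428, 0.184 and 0.133, without overlap. Of the 10 genes with the lowest fold changes, among called genes averaging 50 counts or more whose groups did not overlap, 5 were on this list, namely Rsad2, Oas2, Irf7, Rtp4 (-5.92 ± 0.23) and Oas1a. Guanylate binding proteins were split. Gbp5 rose from 31.4, 26.3 and 35.6 CPM to 104, 118 and 117 (1.86 ± 0.16), and Gbp2 and Gbp3 were not called, at 0.90 and 0.02. Gbp7 fell from 74.6, 43.6 and 69.8 CPM to 5.91, 6.38 and 6.01 (-3.36 ± 0.17), Gbp6 by 3.12 and Gbp4 by 1.59 on the log2 scale.

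Interferon-regulated promoters are known for paired GAAA half-sites. After the fall of these genes had been seen, windows were searched for 2 copies of GAAA on the same strand with 2 bases between them. The pair was in 50.0% of 38 windows of 31 interferon-stimulated genes and in 3.13% of windows of well-counted genes. The Rsad2 window (chr12:26456403-26456702, minus strand) is shown with the pair in capitals, read here on the opposite strand.
Rsad2: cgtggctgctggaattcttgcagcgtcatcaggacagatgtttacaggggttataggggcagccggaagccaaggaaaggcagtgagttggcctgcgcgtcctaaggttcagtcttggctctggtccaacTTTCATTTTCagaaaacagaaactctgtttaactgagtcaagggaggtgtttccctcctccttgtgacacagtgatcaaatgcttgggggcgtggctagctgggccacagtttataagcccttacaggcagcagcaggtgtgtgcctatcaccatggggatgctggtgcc

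Ranked by size alone, the 10 highest genes, among called genes averaging 50 counts or more whose groups did not overlap, were Aunip, Gm18561, Idi2, Bdh2, Crabp2, Il2, Mcm10, Lrr1, Rad54l and Ifitm2. Aunip, a centrosome and DNA repair factor, Gm18561 and the isomerase Idi2 had no count at 0 h and were at least 176-fold, 42.3-fold and 41.4-fold higher. Crabp2, which carries retinoic acid, had 3 counts at 0 h and 1892 at 20 h, a ratio of 675 (exact 95% interval 231 to 3280, counting error only). Rad54l, of recombination repair, went from a range of 0.207 to 0.314 CPM to one of 54.9 to 64.0. The 10 lowest were Rsad2, Oas2, Ifi206, Irf7, Slc16a5, Armc3, Lrrc75b, Rtp4, Oas1a and G0s2. Ifi206, an interferon-inducible member of the IFI200 family, fell from 159, 135 and 143 CPM to 1.63, 1.77 and 2.08, and G0s2, an inhibitor of fat breakdown, from 12.5, 16.4 and 9.21 to 0, 0.0737 and 0.619. By CPM lost, the class I antigen presentation genes H2-K1 (4831, 6708 and 4767 to 1560.0, 1641 and 1539) and B2m (3640.4, 5692 and 3820.5 to 1731, 1646 and 1648) and the actin-binding Tmsb4x joined the mitochondrial transcripts. H2-K1, the Ifi200, Ifitm, Oas and Gbp families and the Gm genes have close copies, and their single values are uncertain.

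The 4 h libraries show when these genes moved, with the third 4 h library nearer to 0 h than the others for genes such as Klf2 (198, 192 and 607 CPM) and Il7r (309.6, 369.8 and 751). Between 4 h and 20 h in the same cells, 2195 genes were higher and 2589 lower, 7.9% and 9.32% of the genes tested. Without TMM scaling the split was 2722 against 2075, and the median of well-counted genes moved from -0.03 to 0.17. Between 0 h and 4 h, 8.05% of all genes were higher and 9.29% lower. At 4 h, 2 of 56 replication genes were higher and 8 lower than at 0 h, and of 42 mitosis genes 1 was higher and 7 lower. Cdc6 was at 0.187, 0.275 and 0.302 CPM at 4 h (20 h against 4 h 8.86 ± 0.29, adjusted p = 7.78e-203), and 51 of 56 replication and 39 of 42 mitosis genes rose between 4 h and 20 h. Kntc1, a kinetochore gene outside these lists, went from 0.172 ± 0.191 CPM to 52.7 ± 7.54 (mean ± SD, n = 3). Of 71 ribosome biogenesis genes 62 were already higher at 4 h, and between 4 h and 20 h none rose and 2 fell. Nop16 had 271 ± 45.3 CPM at 4 h and 294 ± 12.0 at 20 h.

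Immediate early and NF-kB factors fell back, 19 of 24 being lower at 20 h than at 4 h and none higher. Nr4a2, induced by TCR signals, was at 1.78 ± 0.158 CPM at 0 h, 855 ± 136 at 4 h and 21.5 ± 3.90 at 20 h. Fosl2 passed through 919 ± 177 CPM to 30.0 ± 0.589, and the follicular helper factor Bcl6 through 251 ± 39.7 to 7.26 ± 1.43, under its 0 h level of 22.7 ± 5.48. Sema7a fell from 1157 ± 115 CPM at 4 h to 22.2 ± 9.82 at 20 h, and Ramp3 from 330.2 ± 48.9 to 3.55 ± 0.905. Of 29 glycolysis and pentose phosphate genes, 9 were higher and 5 lower at 4 h than at 0 h. Between 4 h and 20 h 10 of them were higher and 1 lower, with Tpi1 at 44.6 ± 6.14 and 795 ± 68.2 CPM. For interferon-stimulated genes, Irf7 had already come down to 14.6 ± 6.22 CPM at 4 h, and 13 of 40 fell further while 3 rose.

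**Figure D3:**
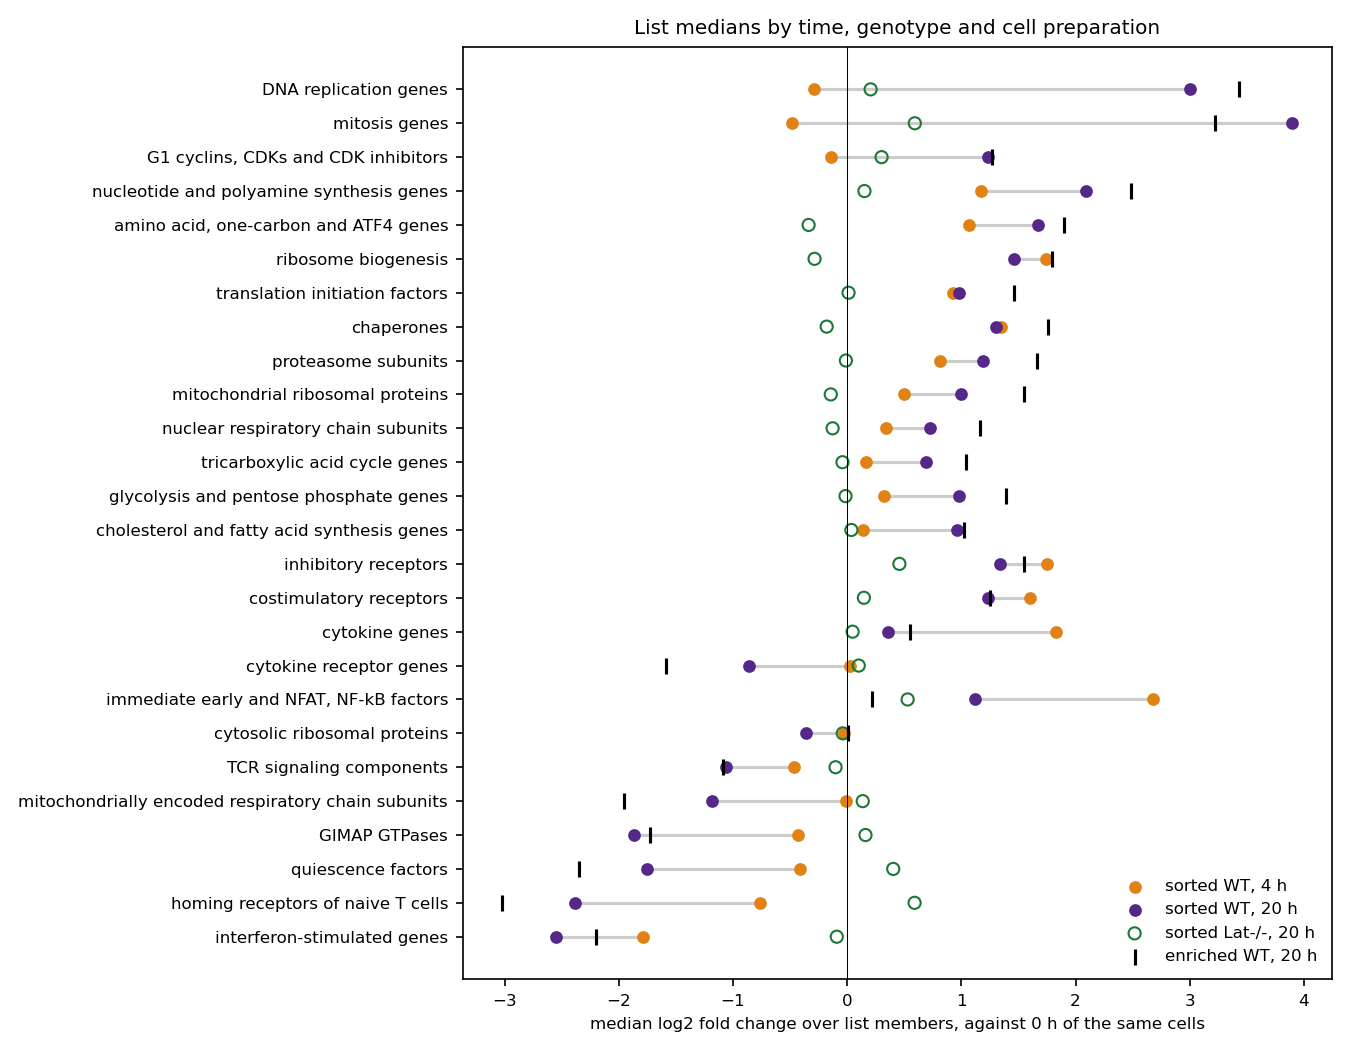
Median log2 fold change over list members against 0 h of the same cells (x axis) for 26 lists (rows), in sorted WT cells at 4 h (orange) and 20 h (purple), sorted Lat-/- cells at 20 h (open green) and enriched WT cells at 20 h (black bar). Lat-/- medians lie between -0.34 and 0.59, while the WT medians at 20 h run from -2.55 to 3.90.

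The 20 h response was next set against that of sorted Lat-/- cells given the same antibodies. As a term for the difference between the responses, 2598 genes were higher and 2813 lower in WT, 9.35% and 10.1% of genes. Lat-/- cells had 595 genes higher and 575 lower at 20 h than at 0 h, of the same 27780 genes tested. Of 56 replication genes 52 rose more in WT, Mcm5 for example going from 55.7 ± 7.88 to 84.2 ± 41.5 CPM (mean ± SD, n = 3) in Lat-/- cells (difference 3.70 ± 0.22, adjusted p = 1.57e-62). Ribosome biogenesis gave 58 of 71 and amino acid and ATF4 genes 32 of 43 in the same direction (2 in the other). Interferon-stimulated genes were lower in the WT response for 35 of 40, Irf7 standing at 105 ± 8.44 and 53.1 ± 21.0 CPM in Lat-/- cells. Homing and quiescence genes were lower in 8 of 11 and 19 of 25. S1pr1 went from 765 ± 18.6 to 2244 ± 382 CPM in Lat-/- cells (difference -5.28 ± 0.22), the direction opposite to WT, and Il7r likewise changed by 1.79 there on the log2 scale (difference -6.43 ± 0.22).

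Other genes had no call for the difference, which does not show that they respond alike. The AP-1 gene Jun changed by -4.39 in WT and -4.58 in Lat-/- cells (difference 0.19 ± 0.22), Bcl2 by -1.21 and -1.26 (0.06 ± 0.21), and the 4-1BB gene Tnfrsf9 by 3.67 and 3.44 (0.23 ± 0.23). In Lat-/- cells Il2 was at 0.0155 ± 0.0269 CPM at 0 h and 3.03 ± 2.85 at 20 h, and with so few counts at 0 h no fold is given. Irf4 was higher at 20 h in both, and rose more in WT, 5.70 against 4.25 (difference 1.44 ± 0.22, adjusted p = 1.04e-09).

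Against magnetically enriched WT cells, the sorted cells gave largely overlapping calls. At 20 h, enriched cells had 3967 genes higher and 5584 lower than at 0 h, in a separate fit to all libraries of their experiment. That fit held more libraries than the fit of the sorted cells, and the share over all its genes is not given here. Of the genes higher in sorted cells, 2663 were also higher in enriched cells, 88.8% of the sorted and 67.1% of the enriched list, and 3133 were lower in both, 88.9% and 56.1%. In opposite directions, 34 genes were higher in sorted and lower in enriched cells, and 3 were lower in sorted and higher in enriched cells. Where the responses differed by the interaction term, 495 genes were higher in the sorted response and 52 lower, 1.75% and 0.184% of 28255 genes. With a filter on low counts these were 153 and 21 genes, and without the third enriched 0 h library 89 genes were lower. Cell preparation, strain and experiment differ together between these groups and cannot be told apart. CPM in the next paragraphs are scaled over these 12 libraries jointly.

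Markers of other cells were among the 495 genes. Cd74, the invariant chain of B and myeloid cells, was at 6.01, 9.10 and 8.77 CPM in sorted cells at 0 h and 34.3, 35.4 and 25.9 at 20 h, and at 246, 165 and 1048 and then 24.6, 21.3 and 22.9 in enriched cells (difference 6.41 ± 0.25, adjusted p = 1.65e-144). Ms4a1 (CD20) was at 41.5, 24.8 and 148 CPM in enriched cells at 0 h, against 0, 0 and 0.0705 in sorted cells, and the macrophage gene Lyz2 at 62.4, 42.4 and 165 against 0.202, 0.222 and 0.247. In all, 10 of 19 B cell and 8 of 16 myeloid markers with reads were higher in the sorted response and none lower. The part of such cells in the 495 calls was not tested. Beyond those lists, 21 of 42 mitosis genes had a higher log2 fold change in sorted cells. Mki67 stood at 0 h at 2.10, 1.38 and 0.81 CPM against 16.1, 11.6 and 8.19 in enriched cells. At 20 h it stood at 23.3, 15.1 and 8.62 CPM in sorted and 45.1, 43.0 and 10.6 in enriched cells, so its 20 h level was not higher in sorted cells. Replication genes differed in 4 of 56 cases.

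Among the 52 genes lower in the sorted response were 10 of 40 interferon-stimulated genes, and none of that list was higher. Iigp1, an immunity-related GTPase, went from 30.5, 37.4 and 38.1 CPM to 7.25, 7.87 and 13.0 in sorted cells and from 24.0, 28.4 and 38.2 to 60.4, 112 and 214 in enriched cells (difference -4.01 ± 0.24, adjusted p = 8.93e-58). The difference was also negative for Irgm1 (-2.52), Gbp2 (-1.87) and Irf1 (-1.57), while Irf7, Rsad2 and Isg15 were not called, at -0.10, -0.22 and -0.78. Irgm1 moved as Iigp1 did, but Gbp2 levels were higher at 20 h in both kinds of cells and Irf1 levels lower in both. Of these, Irf1 and Isg15 were picked from the list after its values were seen. Tbx21, the master factor of T helper 1 cells, stood at 2.75, 2.47 and 3.51 CPM in sorted and 44.8, 89.8 and 159 in enriched cells at 20 h (difference -3.86 ± 0.28). Ifng was at 0.982, 4.13 and 5.61 CPM in enriched cells at 20 h and 0.27, 0.304 and 0.187 in sorted cells, a difference of -1.54 ± 0.71 that was not called (adjusted p = 0.373). Hbegf, a growth factor gene, had the lowest difference of the genes averaging 50 counts or more, at 30.5, 40.7 and 25.5 and then 14.2, 14.6 and 14.0 CPM in sorted cells and 0.531, 0.196 and 0.153 and then 2.28, 3.38 and 2.64 in enriched cells. The hDTR reporter of the sorted strain is the human form of the protein that Hbegf encodes. In Lat-/- (hDTR-) cells Hbegf was at 0.512 ± 0.241 CPM at 0 h and 0.448 ± 0.26 at 20 h, and reads of the reporter and of the mouse gene cannot be told apart in these counts. Gm26917, a noncoding RNA gene, ran over a wide range in sorted cells at 0 h, at 1354, 1796 and 86.4 CPM, so its 0 h and 20 h values overlapped.

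**Figure D4:**
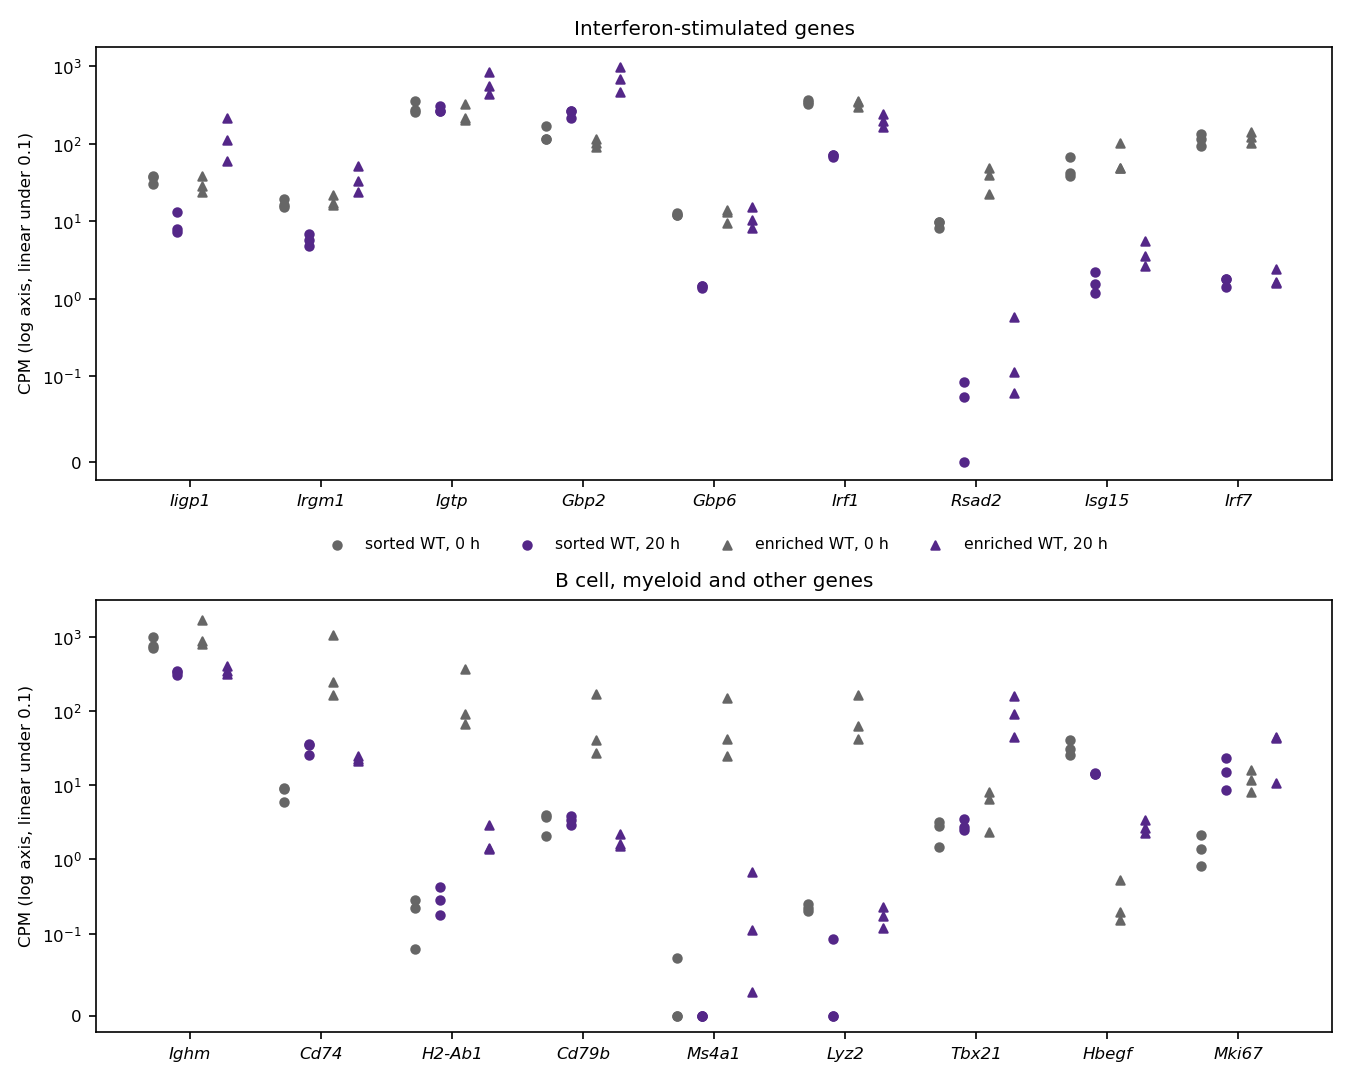
CPM on a log axis, linear under 0.1 (y), of 18 genes in each sorted (circles) and enriched (triangles) WT library at 0 h (grey) and 20 h (purple), 3 libraries a group. Iigp1, Irgm1 and Gbp2 are higher at 20 h than 0 h in enriched cells, Rsad2, Isg15 and Irf7 fall in both, and Cd74, H2-Ab1, Cd79b, Ms4a1 and Lyz2 are high in enriched cells at 0 h.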

How the data were processed

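RNA-seq of 54 libraries was made from naive CD4+ T cells, and 18 of them form the LAT experiment. Per the labels and the study's methods, libraries were TruSeq stranded mRNA, base calling used bcl2fastq 2.17.1.14, and the authors aligned reads with STAR to GRCm38 and deposited read counts per gene from featureCounts. The annotation release and the strand and multi-mapping settings are not given in the sources used here, so genes with near-identical copies and overlapping genes are uncertain. The deposited counts of 55385 genes were used as they stand.

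Genes with at least 1 read in the 18 libraries were fitted with edgeR 4.0.16 (R 4.3.3, TMM factors, quasi-likelihood test, 1 coefficient per group). The contrast of 20 h against 0 h, that against 4 h, and the difference from the response of Lat-/- cells came from this fit, and the difference from enriched WT cells from a joint fit of 12 libraries. Calls and log2 fold changes within enriched WT cells came from a separate fit to all libraries of their own experiment. P-values were adjusted by Benjamini and Hochberg over all genes tested. Genes were called past a 2-fold change where the adjusted p fell below 0.05. Errors of log2 fold changes are standard errors, ± of CPM is the SD, and intervals of ratios cover counting error only, since reads were not counted by molecular identifier. Alternatives were DESeq2 1.42.0, other scalings, a count filter, other thresholds, a replicate block and leaving out each library.

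Named genes were, for each of 46 lists, the 3 highest and 3 lowest members with a mean of 10 counts, plus a fixed set of T cell genes, the 10 highest and lowest called genes with a mean of 50 counts and no overlap, the 5 largest gains and losses in CPM, and the 8 highest and lowest in each difference. Some genes of the rule are not reported here. Ttk and Chac1 were shown for their promoters, and Cd14, Pax5, Ms4a1, Adgre1, Siglech, Lyz2, Ighm, Irf1, Isg15, Gbp4, Gbp7, Nr4a3, Rel and Nfkb2 were chosen after values were seen. The members, lists and tests were chosen with earlier results of these data known.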

Additional observations from a re-analysis of the deposited data

Results flagged for a closer look

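Both differences between responses were picked out because the edgeR term for the difference itself was called, and the values below are differences on the log2 scale. Set against Lat-/- cells, the sorted WT response was higher for 2598 genes and lower for 2813. The highest were Aunip at 10.42, the glutaminase Gls2 at 7.22, Crabp2 at 6.27, Dmwd at 6.24, the recombination gene Rad54l at 6.11, the kinetochore gene Kntc1 at 6.08, the potassium channel gene Kcnk5 at 6.07 and the cell cycle factor Mybl2 at 5.84. The lowest were Gm10640 at -6.71, Gm9889 at -6.66, Oasl2 at -6.60, Il7r at -6.43, Gm15675 at -6.29, Cnga1 at -6.15, Ifi206 at -5.97 and Ifi213 at -5.95. The 3 interferon-inducible genes among them had log2 fold changes of -5.76 (Oasl2), -6.32 (Ifi206) and -5.58 (Ifi213) in WT cells. In sorted WT cells at 0 h Aunip had no count and Gls2 and Crabp2 had 3 counts each, so their fitted differences depend on the prior count and give no size. From the counts alone the rise in WT cells was at least 176-fold for Aunip, and its ratio was 196 for Gls2 and 675 for Crabp2 (exact 95% intervals 66.7 to 952 and 231 to 3280, counting error only).

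Set against enriched WT cells, it was higher for 495 genes and lower for 52. The highest were Cd74 at 6.41, the annexin Anxa3 at 6.28, Aunip at 6.19, the heme oxygenase Hmox1 at 5.82, the B cell receptor chain Cd79b at 5.56, Plxnb2 at 4.67, the galectin Lgals3 at 4.66 and the phospholipase Plcg2 at 4.52. Hmox1 and Plcg2 fell in enriched cells, by 3.99 and 1.54, and rose in sorted cells by 1.77 and 2.91. The lowest were Hbegf at -4.46, Iigp1 at -4.01, the surface protein gene Ly6a (Sca-1) at -3.89, Tbx21 at -3.86, Gm26917 at -3.11, Gbp6 at -2.99, Calhm6 at -2.72 and Irgm1 at -2.52. Ly6a fell by 3.83 in sorted cells and changed by 0.10 in enriched cells. Anxa3 and Aunip had 2 counts and none in sorted cells at 0 h, so their differences give no size either. The counts of Hbegf in sorted WT cells cannot be told apart from reads of the hDTR reporter, its human form, which enriched cells do not carry.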

How the results depend on the processing

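For the 20 h against 0 h contrast of sorted WT cells, counts stayed within 1.5 times the reported 2999 higher and 3525 lower genes with DESeq2 (3038 and 3191), with its size factors, without TMM, with a count filter and with the compared groups alone. On adjusted p alone 4578 genes were higher, and with a test against a fold change of 2 (glmTreat) 1956 were higher and 2221 lower. Against 4 h, the adjusted p alone gave 3709 higher and 4486 lower, and glmTreat 1255 and 1454. The difference from Lat-/- cells gave 1398 and 1639 under glmTreat. The difference from enriched cells gave 86 lower on adjusted p alone, 153 higher and 21 lower with edgeR's count filter filterByExpr, and 229 and 18 under glmTreat. Leaving out 1 library gave 2769 to 2939 higher and 3156 to 3693 lower genes against 0 h, 2005 to 2296 and 2227 to 2392 against 4 h, 2336 to 2765 and 2594 to 3043 against Lat-/- cells, and 385 to 663 and 39 to 89 against enriched cells. The 89 came without the third enriched library at 0 h, and the cause of these changes was not tested.

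Igkc, an immunoglobulin light chain gene, reversed with 1 library. Its log2 fold change against 0 h ran from -6.96 without the third 20 h library to 1.603 (adjusted p = 0.218, edgeR) without the third 0 h library, and its difference from Lat-/- cells from -3.77 to 4.78. For Ccl3, a chemokine gene, that difference ran from -4.32 without the third Lat-/- library at 0 h to 2.23 without the third at 20 h. Under DESeq2 3 B cell, 5 myeloid and 4 NK cell markers were lower, against 5, 8 and 7.

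Sorted WT libraries at 0 h and 20 h that share a replicate number did not deviate together (r = 0.127, 0.0109 and -0.016 across genes). Pairing between WT and Lat-/- libraries was not checked in this way. The numbers were not read as pairs in the main fits. With the replicate block, 2951 genes were higher and 3382 lower against 0 h, 2183 and 2516 against 4 h, 2620 and 2794 against Lat-/- cells, and 530 and 53 against enriched cells. A fold against libraries without a count is given as a bound at a floor of 3 counts per library, and one against 1 to 3 counts as a ratio with its counting interval.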
